A study of Mus musculus with 4 samples.

Results

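Natural killer (NK) cell receptors were followed at the RNA level in tumor associated macrophages (TAMs) from MCA205 tumors, a mouse fibrosarcoma grown under the skin of C57BL/6 mice. The 9 genes described here, chosen by name as receptors of the NK cell surface, were Klrd1, Klre1, Klrk1, Klrb1c, Ncr1, Klrc1, Klrg1, Gm156 and Il2rb, out of 54146 genes listed in the counts. The choice was made with earlier results of these data known. All 9 were among the 14688 genes with enough counts to be tested. Of these 9 genes, 8 were called lower after propranolol treatment than in the controls, by 2.42-fold for Il2rb to 10.4-fold for Klrd1 in mean normalized level, and Klrg1 was not called. Over all tested genes 15.6% were called lower. After a correction for the GC content of transcripts, with which fold changes moved throughout these libraries, 6 of the 9 were called lower, against 5.11% of all tested genes.

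The study compared propranolol, a nonselective beta blocker, with vehicle to find what it changes in TAMs. All mice were females aged 8 to 16 weeks that carried an MCA205 tumor on the flank. The propranolol group (2 libraries) drank water with 0.5 g/L propranolol hydrochloride from the day on which the cells were inoculated, and the control group (2 libraries) is labelled vehicle. All groups share the tumor and the sort. In both groups CD45+ cells were enriched on magnetic beads, live CD11b+ F4/80+ cells were then sorted by FACS, and polyadenylated RNA was sequenced. The gate rests on these 2 surface proteins, and the labels name no step that removes NK cells or T cells by a marker of their own. T cells and most NK cells as a rule lack F4/80, so that the gate itself would remove most of both, and the study tested the purity of the sorted cells. The libraries held 13798249 (control 1), 23018142 (control 2), 39818103 (propranolol 1) and 16424081 (propranolol 2) counts, so that low genes were measured least precisely in control 1 and propranolol 2.

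NK cells kill tumor cells when signals from activating receptors outweigh those from inhibitory receptors. Most mouse NK receptors of the lectin-like Klr families are encoded side by side in the NK gene complex on chromosome 6, and several of them work only as pairs of chains or with adaptor proteins that carry the signal. Many are also found on activated CD8+ T cells, so their RNA does not mark NK cells alone. In a bulk sample, fewer cells of a type and less RNA per cell cannot be told apart.

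Levels are given as CPM, which are counts relative to the size of the library after TMM normalization. A gene was called when its Benjamini-Hochberg adjusted p in the edgeR quasi-likelihood test was under 0.05 over all tested genes and its fold change was above 1.5. Log2 fold changes are propranolol against control, with the standard error (SE) of the fit, and values after ± are the SD of 2 libraries.

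Of the 9 receptors, 6 lie in the NK gene complex, and RefSeq promoter windows on GRCm38.p6 were at hand for 6 of the 9 (Klrk1, Klrb1c, Klre1, Klrc1, Ncr1 and Gm156, which RefSeq lists as Klrh1). The 250 bases before the start of each were searched on both strands for the letters GGTGTGA (T-box factors), TGTGGTT (RUNX factors) and AGGAAGT (ETS factors), families known to act in NK cells. The motifs were chosen after the expression values were known and do not overlap one another. The RUNX letters were found in 3 of the 6 windows, and in 4.46% of the 27025 windows of the same length in the table. The T-box and ETS letters were in none of the 6, and in 3.31% and 7.80% of all windows. A match is a description of the sequence and not evidence of binding. The 3 windows with a match are shown, those of the receptor with the lowest GC content (Klrk1), of a pairing chain (Klre1) and of a receptor outside the complex (Ncr1). They are written 5′ to 3′ on the strand of the gene, with the RUNX letters in capitals, and end at the base before the RefSeq start, which for Klre1 lies inside the GENCODE gene. They lie at chr6:129623865-129624114 on the minus strand (Klrk1), chr6:129577963-129578212 on the plus strand (Klre1) and chr7:4337465-4337714 on the plus strand (Ncr1).
Klrk1: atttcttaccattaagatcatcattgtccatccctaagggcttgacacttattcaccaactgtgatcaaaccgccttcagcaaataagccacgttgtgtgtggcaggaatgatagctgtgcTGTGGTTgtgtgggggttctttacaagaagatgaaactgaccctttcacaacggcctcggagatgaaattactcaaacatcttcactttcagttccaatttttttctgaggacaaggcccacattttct
Klre1: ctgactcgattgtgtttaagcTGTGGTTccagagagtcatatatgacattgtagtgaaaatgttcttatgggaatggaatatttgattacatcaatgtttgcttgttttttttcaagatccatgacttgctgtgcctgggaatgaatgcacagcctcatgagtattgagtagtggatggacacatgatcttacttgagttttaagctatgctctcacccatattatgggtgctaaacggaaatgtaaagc
Ncr1: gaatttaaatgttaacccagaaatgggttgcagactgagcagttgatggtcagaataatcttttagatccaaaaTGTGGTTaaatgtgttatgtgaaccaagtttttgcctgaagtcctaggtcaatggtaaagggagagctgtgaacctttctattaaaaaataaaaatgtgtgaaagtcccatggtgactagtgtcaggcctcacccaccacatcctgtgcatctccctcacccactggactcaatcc
The match begins 129 bases before the start in Klrk1, 229 in Klre1 and 176 in Ncr1.

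Klrd1 (chromosome 6, 129591782 to 129598775, plus strand) encodes CD94, the chain that pairs with NKG2 chains to form receptors for the nonclassical class I molecule Qa-1. It had 22.9 and 22.96 CPM in control 1 and 2, and 3.25 and 1.18 CPM in propranolol 1 and 2. The controls were nearly equal, both propranolol libraries lay far below them, and propranolol 2 was the lowest. Its log2 fold change was -3.24 (SE 0.32, edgeR with Benjamini-Hochberg adjusted p = 0.000127). Klrc1 (chromosome 6, 129666015 to 129678973, minus strand) encodes NKG2A, the inhibitory partner of CD94. It had 17.9 and 17.6 CPM in the controls and 2.94 and 0.851 CPM in propranolol 1 and 2, and its log2 fold change was -3.08 (SE 0.38, edgeR adjusted p = 0.000276). The partners moved side by side: the CPM of Klrc1 divided by that of Klrd1 was 0.782 and 0.766 in the controls and 0.907 and 0.722 in the propranolol libraries. A fairly steady ratio was not particular to partners. That of Gm156 to Klrd1 was 0.195 and 0.227 in the controls and 0.237 and 0.167 with propranolol. Klrc1 shares 40.3% of the 50-base stretches of its longest transcript with Klrc2 and Klrc3, so that its counts are less certain than those of Klrd1, which shares 0%.

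Klre1 (chromosome 6, 129577905 to 129585827, plus strand) encodes another chain that pairs, with KLRI1 in an inhibitory receptor or with KLRI2 in an activating one. Its level was 9.37 and 8.21 CPM in the controls against 1.38 and 1.11 CPM in propranolol 1 and 2, with the propranolol libraries close to each other. The log2 fold change was -2.79 (SE 0.30, edgeR adjusted p = 0.000172). Klri2 had 9.37 and 6.98 CPM in the controls and 1.29 and 0.982 CPM with propranolol (log2 fold change -2.80, SE 0.33, edgeR adjusted p = 0.000239). As with CD94 and NKG2A, the ratio of Klri2 to Klre1 stayed in a narrow range, 1 and 0.850 in the controls and 0.940 and 0.882 with propranolol. Klri1 was lower in counts, at 2.76 and 1.12 CPM in the controls and 0.413 and 0.524 CPM with propranolol, and was called lower (log2 fold change -2.04, SE 0.63, edgeR adjusted p = 0.0255). Its ratio to Klre1 was not in a narrow range, at 0.295 and 0.136 in the controls and 0.300 and 0.471 with propranolol.

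Among the activating receptors, Klrk1 (chromosome 6, 129610323 to 129623864, minus strand) encodes NKG2D, which binds stress-induced ligands on tumor cells. It had 37.7 and 37.3 CPM in the controls and 12.0 and 7.86 CPM in propranolol 1 and 2. The groups were well apart, and the log2 fold change was -1.88 (SE 0.19, edgeR adjusted p = 0.000128). The fall of Klrk1 was smaller than that of Klrd1, a difference that was not tested: there were 1.65 and 1.63 times as many Klrk1 as Klrd1 counts in the controls, and 3.71 and 6.67 times as many with propranolol. Its transcript is the poorest in GC of the 9, and its value depended on how GC content was treated, as given further on.

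Klrb1c (chromosome 6, 128778485 to 128789215, minus strand) encodes the activating receptor NK1.1, the antigen by which NK cells are usually recognized in C57BL/6 mice. It had 6.41 and 5.50 CPM in the controls and 2.15 and 1.05 CPM with propranolol (log2 fold change -1.83, SE 0.38, edgeR adjusted p = 0.00369). Of its 50-base stretches 18.1% recur in Klrb1 relatives or in Gm44511, a minus-strand gene that overlaps 13.9% of its exon bases. Reads were filtered by mapping quality, so that reads from these stretches may have been lost, and the counts of Klrb1c are less certain. Ncr1 (chromosome 7, 4337724 to 4345164, plus strand) encodes NKp46, the activating receptor most restricted to NK cells and related innate lymphoid cells. It had 6.20 and 6.42 CPM in the controls, 2.75 CPM in propranolol 1 and 0.786 CPM in propranolol 2. The propranolol libraries thus differed from each other more than in most of the 9 genes, by 3.50-fold. The log2 fold change of Ncr1 was -1.73 (SE 0.45, edgeR adjusted p = 0.0121).

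Klrg1 (chromosome 6, 122270596 to 122282882, minus strand) encodes an inhibitory receptor for cadherins that is found on mature NK cells and effector T cells, and it lies outside the NK gene complex. It had 2.43 and 2.23 CPM in the controls and 2.20 and 1.83 CPM with propranolol. The groups did not overlap, but only narrowly, and the log2 fold change of -0.19 (SE 0.39, edgeR adjusted p = 0.724) was within its error. With 36, 56, 80 and 28 counts in the 4 libraries Klrg1 was shallow, and a small change was not detectable at this depth. Gm156 (chromosome 6, 129766568 to 129784270, minus strand) encodes a lectin-like receptor of the complex without a ligand that is well established. It had 4.45 and 5.22 CPM in the controls and 0.770 and 0.196 CPM in propranolol 1 and 2, where the last value rests on 3 counts. Its log2 fold change was -3.14 (SE 0.51, edgeR adjusted p = 0.00108).

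Il2rb (chromosome 15, 78479256 to 78495271, minus strand) encodes CD122, the chain shared by the receptors for IL-2 and IL-15, the cytokine on which NK cells depend. It had the highest level per length of the 9 genes, and its CPM were 165 and 186 in the controls and 94.7 and 50.2 in propranolol 1 and 2. The propranolol libraries differed from each other by 1.89-fold and still lay below both controls. Without a GC correction its log2 fold change of -1.26 (SE 0.23, edgeR adjusted p = 0.00176) was the smallest of the 8 that were called. Corrected for the GC content of coding sequences, as given further on, Klrk1 (-1.08), Klrb1c (-1.32) and Ncr1 (-1.35) fell less than Il2rb (-1.49). In levels without a correction, Il2rb made up more of the summed level per length of the 9 receptors after treatment, at 67.7% and 70.0%, than in the controls, at 46.1% and 49.4%. Klrd1 went the other way, from 21.4% and 20.4% to 7.76% and 5.50%.

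**Figure D1:**
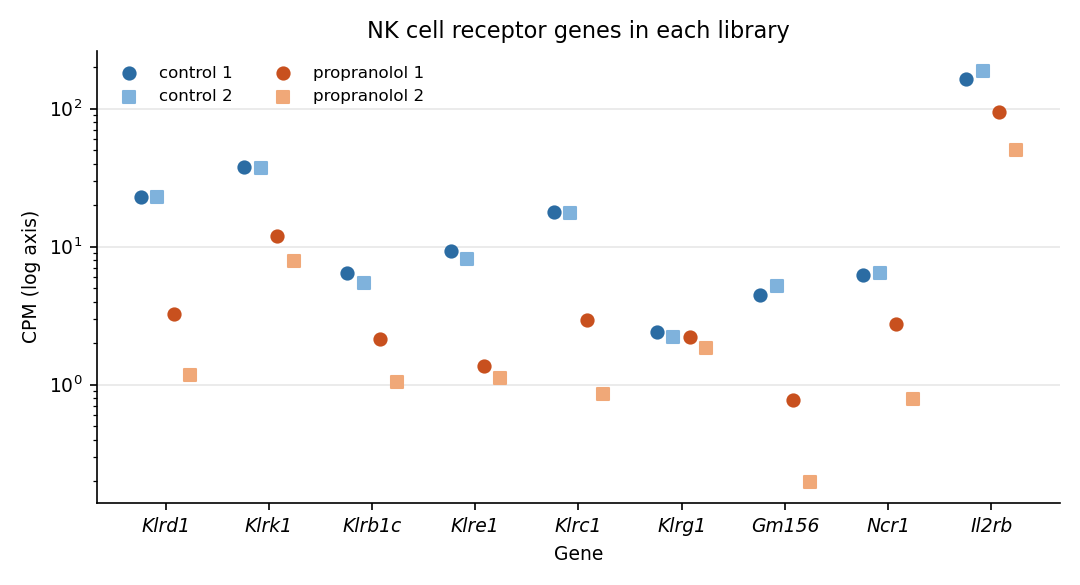
CPM of the 9 receptor genes (log axis) in control 1 and 2 (blue) and propranolol 1 and 2 (orange), one point per library. Klrd1 lies at 22.9 and 22.96 CPM in the controls and at 3.25 and 1.18 CPM with propranolol, whereas the 4 points of Klrg1 lie between 1.83 and 2.43 CPM.

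All 8 calls were downward. Over all tested genes the calls in either direction came to 27.8%, and those downward to 15.6%. In all 9 genes both propranolol libraries lay below both control libraries, which was so for 36.9% of all tested genes. The median log2 fold change was -1.88 over the 9 genes and -0.02 over all tested genes. The plot of CPM by library shows how alike the controls were, with ratios of control 1 to control 2 between 0.852 and 1.16, and how far apart the propranolol libraries were, with all 9 genes lower in propranolol 2 than in propranolol 1 by 1.20-fold to 3.92-fold. Of all tested genes 54.9% were lower in propranolol 2. Without propranolol 1 the log2 fold changes were larger, at -4.27 for Klrd1, -4.37 for Klrc1, -4.58 for Gm156, -2.99 for Ncr1 and -2.49 for Klrb1c. Without propranolol 2 they were smaller, at -2.79 for Klrd1, -1.17 for Ncr1 and -0.86 for Il2rb.

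Per kilobase of exon, the controls had Il2rb at 41.0 ± 3.60 CPM per kb, Klrd1 at 17.9 ± 0.0554, Klrc1 at 8.93 ± 0.104 and Klrk1 at 5.22 ± 0.0379. Ncr1 followed at 4.10 ± 0.0982, then Klre1 at 2.52 ± 0.235, Gm156 at 2.42 ± 0.273, Klrb1c at 2.01 ± 0.216 and Klrg1 at 1.65 ± 0.0977 CPM per kb (SD, n = 2 libraries each). Among neighbours in that order the libraries overlapped only for Klre1 and Gm156. With propranolol Il2rb stayed first at 16.9 ± 7.35 CPM per kb, and every pair of neighbours below it overlapped, from Klrd1 at 1.73 ± 1.14 to Gm156 at 0.242 ± 0.203. Klrg1, the last of the 9 in the controls, was the third with propranolol at 1.43 ± 0.183 CPM per kb. The order depends on the length used: with the longest transcript of 3259 bases in place of all exons (7183 bases), Klrk1 stood above Klrc1 in the controls, at 11.5 ± 0.0835 CPM per kb. With propranolol and the longest transcripts, Klrk1 stood above Klrg1, at 3.05 ± 0.909 CPM per kb, and Klrg1 was number 4 in the order.

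GC content moved with the fold change throughout these libraries. In the decile of tested genes poorest in GC (30.8% to 41.2% in the longest transcript) the median log2 fold change was -0.94 and 60.2% were called lower, and in the decile richest in GC the median was 0.46 and 5.18% were called lower. Of the 9 receptors, 5 were in the poorest decile (Klrk1 at 32.7%, Klrd1 at 35.8%, Klrc1 at 36.4%, Gm156 at 37.6% and Klre1 at 40.5%). Il2rb, at 53.9%, was in a decile whose median was 0.37, opposite in sign to its own change. The plot of GC content against fold change shows that all 9 genes lay below the median of their decile, Klrg1 only just, at -0.19 against -0.17.

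**Figure D2:**
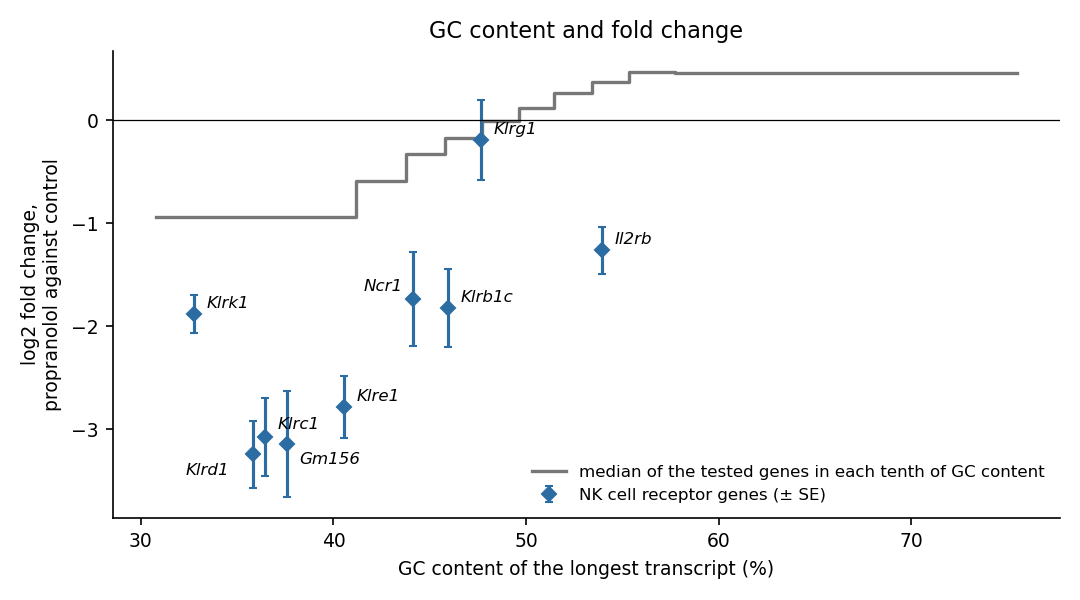
Log2 fold change of the 9 receptor genes (points, ± SE of the edgeR fit) against the GC content of the longest transcript in percent, with the median of all tested genes in each decile of GC content (grey steps). The grey steps rise from -0.94 to 0.46, and Klrd1, Klrc1, Gm156 and Klre1 lie at -2.79 or lower.

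After a correction that takes out the GC trend within each library, 6 of the 9 receptors were called lower, against 5.11% of all tested genes. Klrd1 (log2 fold change -1.75, edgeR adjusted p = 0.00457), Klrc1 (-1.69, adjusted p = 0.0104), Klre1 (-1.99, adjusted p = 0.00203) and Gm156 (-1.95, adjusted p = 0.0225) kept their calls with smaller changes. Klrb1c (-1.55, edgeR adjusted p = 0.0169) and Il2rb (-1.55, adjusted p = 0.00278) were called as well. Ncr1 missed the threshold (-1.33, edgeR adjusted p = 0.0597), and Klrk1 changed sign without being called (0.14, adjusted p = 0.612). The median over the 9 genes was -1.55, against 0.06 over all tested genes.

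The loss of Klrk1 depended on which bases its GC content was taken from. Its longest transcript had 32.7% GC and its coding sequence 43.0%, against 36.4% and 43.9% for Klrc1, 35.8% and 38.9% for Klrd1 and 53.9% and 56.2% for Il2rb. With the GC content of coding sequences in the correction, an alternative chosen after the data were seen, Klrk1 was called lower (-1.08, edgeR adjusted p = 0.00306), and the value of Klrc1 was -2.39 in place of -1.69. Ncr1 was then just within the threshold (-1.35, edgeR adjusted p = 0.0496), and 8 of the 9 receptors were called lower, against 6.37% of all tested genes. Whether Klrk1 fell is therefore uncertain between these settings, whereas Il2rb, Klrb1c, Klrd1, Klrc1, Klre1 and Gm156 were called lower in all 3 fits. Whether GC content itself or something that goes with it sets the trend was not tested.

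**Figure D3:**
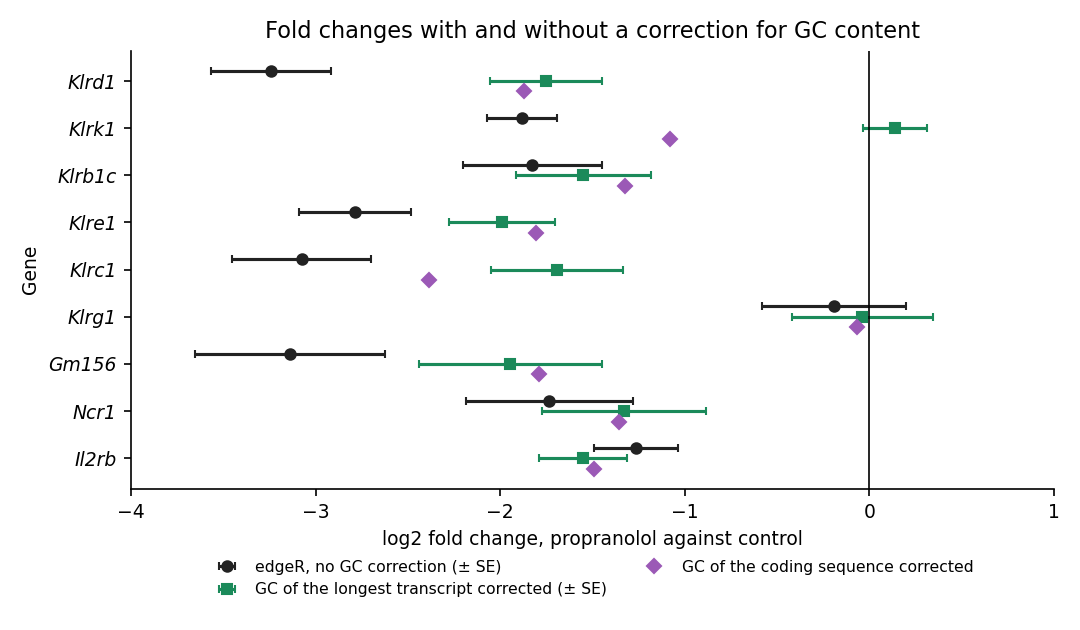
Log2 fold changes of the 9 receptor genes, propranolol against control, without a GC correction (black, ± SE), corrected for the GC content of the longest transcript (green, ± SE) and corrected for that of the coding sequence (purple). Klrk1 moves from -1.88 to 0.14 and -1.08, while Il2rb stays between -1.55 and -1.26.

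The other Klr genes moved with the 9 receptors. Of 23 other Klr genes in the counts 17 were tested, of which 16 were called lower and 0 higher. Of all tested genes 15.6% were called lower, and the median log2 fold change of the 17 was -2.11. The exception was Klrg2, which lies outside the complex (2.16 and 3.15 CPM in the controls, 1.65 and 3.93 CPM with propranolol). Klra2 had the most counts, at 173 and 181 CPM in the controls and 75.7 and 50.6 CPM with propranolol (log2 fold change -1.48, SE 0.16, edgeR adjusted p = 0.000180). Klrb1b, the inhibitory receptor for the product of Clec2d, had 39.6 and 48.5 CPM in the controls and 17.5 and 8.91 CPM with propranolol (log2 fold change -1.70, SE 0.25, edgeR adjusted p = 0.000642). Its counts are less certain, since 29.0% of its 50-base stretches occur in other genes and Gm44511 overlaps 26.9% of its exon bases. Reads from such stretches may have been lost in the filter by mapping quality. The Ly49 genes Klra1, Klra3, Klra4, Klra5, Klra7, Klra8, Klra9 and Klra17 and the pseudogene Klra13-ps, with Klrb1a, Klrb1f and Klrc2, had at most 6.30 CPM in any library. Near-identical sequence makes single Ly49 genes uncertain: 33.1% of the 50-base stretches of Klra8 and 32.4% of those of Klra9 occur in other genes.

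The calls of these genes depended on the setting. After the correction for the GC content of the longest transcript 4 of the 17 were called lower (Klra5, Klrb1a, Klrb1b and Klri2). The median of the 17 was -1.16, and 5.11% of all tested genes were called lower. With coding sequences 3 of the 17 were called lower, against 6.37% of all tested genes. Klra2, the gene with the most counts among them, was no longer called (log2 fold change -0.49, edgeR adjusted p = 0.0348, under the fold limit). Without control 1, control 2, propranolol 1 or propranolol 2, 12, 6, 9 and 8 were called.

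The NK gene complex was taken as chromosome 6 from 128609227 (Klrb1a) to 131247362 (Klra2). Its 6 receptors described here (Klrb1c, Klre1, Klrd1, Klrk1, Klrc1 and Gm156) were all called lower (median log2 fold change -2.93), and so were all 16 tested Klr genes around them (median -2.15). Of its 17 other tested genes 7 were called lower and 0 higher, and their median was -0.67. These 7 were Clec2i, Clec2d, Cd69, Clec12a, Clec9a, Clec7a and Gm16242. Over all tested genes 15.6% were called lower. Most of the 17 lie in GC deciles 1, 2 and 3, counted from the poorest, where 60.2%, 36.1% and 18.3% of tested genes were called lower. Their count is therefore not read as a trait of the complex. Clec7a, the beta-glucan receptor Dectin-1 of myeloid cells, had 196 and 191 CPM in the controls and 131 and 74.8 CPM with propranolol (log2 fold change -0.90, edgeR adjusted p = 0.00546). Clec12a, a myeloid inhibitory receptor, had 158 and 176 CPM in the controls and 102 and 69.4 CPM with propranolol (log2 fold change -0.96, edgeR adjusted p = 0.00122). Gm16242 had 14 and 30 counts in the controls and 0 in both propranolol libraries, at least 19.0-fold lower against a floor of 3 counts over the group. Gm5884, BC035044, Clec2g, Gm15987, BC064078, 2310001H17Rik, Clec1a, Olr1, Gabarapl1 and Gm44135 were not called. After the GC correction 5 of the 6 receptors, 4 of the 16 other Klr genes and 2 of the 17 others were called lower. The share called lower over all tested genes was then 5.11%, and 2 of the 17, Cd69 and 2310001H17Rik, were called higher. The 2 others that stayed lower were Clec9a and Gm16242, whereas Clec7a (-0.12, edgeR adjusted p = 0.682) and Clec12a (-0.22, adjusted p = 0.291) lost their calls. The direction of Cd69, an early activation marker, thus turned with the correction, from -0.88 to 0.60.

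**Figure D4:**
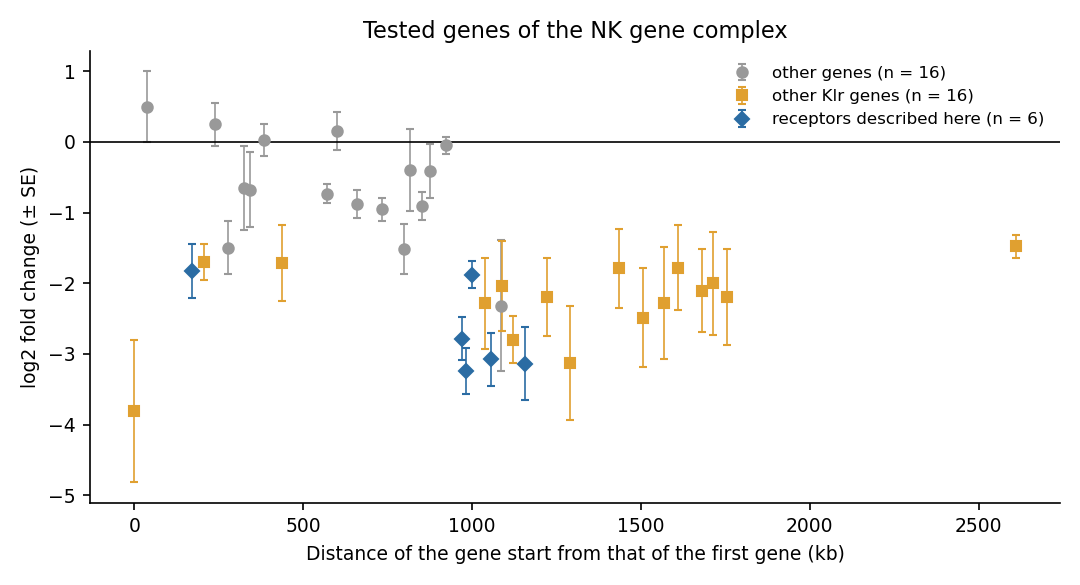
Log2 fold change (± SE of the edgeR fit, propranolol against control) of the tested genes of the NK gene complex by the distance of the gene start from that of the first gene in kb, without Gm16242, which had no counts with propranolol. The receptors described here (blue) and the other Klr genes (yellow) all lie at -1.48 or lower, and most other genes (grey) lie above -1.

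Adaptors and signalling genes moved in both directions. Of 17 such genes 4 were called lower and 1 higher, against 15.6% called lower over all tested genes, so that the share is near the background, and the median log2 fold change was 0.14. Tyrobp (DAP12), which carries the signal of several activating receptors and is abundant in myeloid cells, had 462 and 465 CPM in the controls and 701 and 622 CPM with propranolol, and was not called (log2 fold change 0.51, edgeR adjusted p = 0.00216, under the fold limit). Hcst (DAP10), the adaptor of NKG2D, had 6.68 and 7.49 CPM in the controls and 9.63 and 7.73 CPM with propranolol, and is named outside the rule for named genes. The 4 genes that fell were the lymphocyte genes Zap70 (-0.88), Lat (-0.98), Cd247 (-1.10) and Sh2d1a (-2.25), and the one that rose was Plcg2 (log2 fold change 0.60, edgeR adjusted p = 0.000848). Fcer1g, Inpp5d, Ptpn6 and Vav1, the other abundant members, were not called, with log2 fold changes of 0.13, 0.46, 0.35 and 0.58. After the GC correction 2 were called lower and 0 higher, against 5.11% called lower over all tested genes.

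Of 8 genes of IL-2 and IL-15 signalling 1 was called lower and 1 higher, again near the background, and the median log2 fold change was 0.07. Il2ra, the alpha chain of the IL-2 receptor, fell from 14.6 and 16.0 CPM to 8.47 and 5.76 CPM (log2 fold change -1.08, edgeR adjusted p = 0.00322), and Stat5a rose from 38.5 and 41.5 CPM to 61.3 and 63.5 CPM (log2 fold change 0.64, edgeR adjusted p = 0.00155). Il2rg, the chain that pairs with CD122, had 117 and 120 CPM in the controls and 139 and 118 CPM with propranolol (log2 fold change 0.12, edgeR adjusted p = 0.407). Jak1, Jak3 and Stat5b were not called. Corrected for GC content, 1 of the 8 was called lower and 0 higher, against 5.11% called lower over all tested genes. Among the ligands of the receptors 11 of 16 listed genes were tested, of which 2 were called lower (Clec2d and Clec2i) and 0 higher. The share called lower, 18.2% against 15.6% over all tested genes, is again near the background. Once corrected for GC content 0 were called lower and 1 higher, near the background of 750 lower and 979 higher among the 14688 tested genes. With coding sequences 0 were called lower and 3 higher, against 935 and 1047 of all tested genes. In the correction for the longest transcript Clec2d (-0.38, edgeR adjusted p = 0.0567) and Clec2i (-0.51, adjusted p = 0.348) lost their calls. Raet1d, which encodes a ligand of NKG2D and is named after its values were seen, was there the one called higher (0.96, edgeR adjusted p = 0.0139). H2-T23, which encodes the Qa-1 ligand of CD94 and NKG2A, had 426 and 454 CPM in the controls and 595 and 535 CPM with propranolol and was not called (log2 fold change 0.36, edgeR adjusted p = 0.0137, under the fold limit). Ulbp1, which encodes the NKG2D ligand MULT1, had 36.8 and 39.8 CPM in the controls and 27.4 and 26.1 CPM with propranolol and was not called either (log2 fold change -0.52, edgeR adjusted p = 0.00778). Cdh1, a ligand of KLRG1, and Il15 were not called, at log2 fold changes of 0.38 and -0.11.

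Of 16 other receptors of NK cells 10 were called lower and 0 higher, against 15.6% called lower over all tested genes. Their median log2 fold change was -1.47. Il18r1 (log2 fold change -2.01, edgeR adjusted p = 0.000478) and Il12rb2 (-2.01, adjusted p = 0.00122), chains of the IL-18 and IL-12 receptors, fell most, with Cd96 (-1.89, adjusted p = 0.00171), Itga1 (-1.73, adjusted p = 0.000241) and Crtam (-1.61, adjusted p = 0.0124). Slamf7 had 64.6 and 70.1 CPM in the controls and 34.8 and 26.2 CPM with propranolol (log2 fold change -1.13, edgeR adjusted p = 0.000332). Fcgr3, the Fc receptor CD16 that macrophages share with NK cells, took most of the summed level of the list and was not called (579 and 533 CPM in the controls, 759 and 662 CPM with propranolol, log2 fold change 0.35). Cd244a and Il12rb1 were not called, at -0.23 and 0.02. Of 12 transcription factors of NK cells 6 were called lower and 0 higher, with a median of -0.79: Ets1 (-1.15), Ikzf3 (-1.64), Tbx21 (-1.35), Tox (-1.83), Zfp683 (-1.66) and Eomes (-0.96). Zeb2, Runx3, Id2 and Nfil3, the abundant ones besides Ets1, were not called, at log2 fold changes of -0.29, 0.37, -0.40 and 0.07. After the GC correction 8 of the 16 receptors and 6 of the 12 factors were called lower, against 5.11% of all tested genes.

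Most of the cytotoxic genes of NK cells and CD8+ T cells were called lower, as the receptors were. Of 17 tested 12 were called lower and 0 higher, against 15.6% called lower over all tested genes. Their median log2 fold change was -1.22. Those not called, named after their values were seen, were Ccl5 (-0.11), Gzmd (-0.09), Gzmg (-0.15), Gzme (-0.44) and Gzmf (-0.80). In Ccl5, Gzmd and Gzmg the groups overlapped. After the GC correction 11 were called lower, against 5.11% of all tested genes. Gzmb (granzyme B) had 106 and 104 CPM in the controls and 52.9 and 26.7 CPM with propranolol (log2 fold change -1.38, SE 0.24, edgeR adjusted p = 0.00143). Xcl1 (-2.64), Gzmk (-2.33), Fasl (-2.32), Ifng (-2.09) and Gzma (-1.89) fell most, and Gzmc (-1.12), Prf1 (-1.22), Nkg7 (-1.85) and Ctsw (-1.01) were called lower as well. By the summed level of the list, the libraries had 470 and 488 CPM in the controls and 267 and 155 CPM with propranolol.

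Most markers of T cells moved in the same direction. Of 15 tested 12 were called lower and 0 higher, against 15.6% called lower over all tested genes. Their median log2 fold change was -1.15. After the GC correction 12 were called lower, against 5.11% of all tested genes. The 3 without a call before the correction, Cd4, Cd5 and Foxp3, are named after their values were seen (log2 fold changes 0.32, -0.55 and 0.20). With the correction Cd5 was called lower (-0.92, edgeR adjusted p = 0.0194) and Cd6 was not (-0.80, adjusted p = 0.050017, just past the threshold). Cd8a had 71.0 and 86.8 CPM in the controls and 29.4 and 13.4 CPM with propranolol (log2 fold change -1.84, SE 0.27, edgeR adjusted p = 0.000677). Cd3e, a chain of the T cell receptor complex, had 35.7 and 39.1 CPM in the controls and 18.3 and 8.58 CPM with propranolol (log2 fold change -1.43, SE 0.26, edgeR adjusted p = 0.00202). Thy1, the marker with the most counts, Lck, Cd3g, Cd8b1, Trbc2 and Cd28 were called lower too, at -1.21, -1.09, -2.08, -1.86, -2.15 and -1.94. The summed level of the T cell markers was 399 and 451 CPM in the controls and 218 and 126 CPM with propranolol, so that, as with the receptors, propranolol 2 was the lower library.

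Set against Cd3e, the receptors differed in pattern, which is given as a description. Klrd1 had 0.640 and 0.587 times the CPM of Cd3e in the controls and 0.177 and 0.137 times with propranolol. Il2rb had 4.61 and 4.76 times the CPM of Cd3e in the controls and 5.17 and 5.85 times with propranolol. Ncr1 had 0.174 and 0.164 times in the controls, 0.150 times in propranolol 1 and 0.0916 times in propranolol 2. Klrk1 had 1.05 and 0.953 times in the controls and 0.658 and 0.916 times with propranolol. Klrc1 went from 0.500 and 0.449 times to 0.161 and 0.0992 times, Klre1 from 0.262 and 0.210 times to 0.0751 and 0.130 times, and Gm156 from 0.125 and 0.133 times to 0.0420 and 0.0229 times the CPM of Cd3e. Klrb1c went from 0.179 and 0.141 times to 0.117 and 0.122 times. In these 7 genes, that is all but Il2rb and Klrg1, the ratio to Cd3e was lower in both propranolol libraries than in either control. The same was so for the T cell marker Cd8a, at 1.99 and 2.22 times in the controls and 1.61 and 1.56 times with propranolol. The direction is therefore not particular to the receptors. In size, the ratio of Cd8a fell less than those of Klrd1, Klrc1, Klre1 and Gm156. No other T cell gene was taken as the reference. Klrg1 was higher against Cd3e, at 0.0679 and 0.0570 times in the controls and 0.120 and 0.214 times with propranolol. These ratios were not tested and take no account of GC content.

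Macrophage markers were abundant in every library. The 12 macrophage markers added up to 33807 and 32007 CPM in the controls and 42779 and 41467 CPM with propranolol, with Apoe at the top (10774 and 9926 CPM in the controls), and 1 of the 12, Csf1r, was called higher (log2 fold change 0.59, edgeR adjusted p = 0.000624). Over all tested genes 1798 of 14688 were called higher. With the GC trend taken out, Csf1r was not called (0.28, edgeR adjusted p = 0.0526) and Mrc1 was (0.82, adjusted p = 0.000833). Without control 1, control 2, propranolol 1 or propranolol 2, 3, 2, 1 and 3 macrophage markers were called higher. Lyz2, C1qa, C1qc and C1qb, the next in level, were not called. Itgam, which encodes CD11b, had 359 and 352 CPM in the controls and 369 and 313 CPM with propranolol, and the groups overlapped. Adgre1, which encodes F4/80, had 975 and 1008 CPM in the controls and 1151 and 1100 CPM with propranolol, and neither gene was called. The genes listed as NK cell markers, Ncr1, Klrb1c, Klrk1, Klrd1, Eomes and Itga2, several of which T cells also express, were above 0 in every library, Itga2 at 1.21 and 1.75 CPM in the controls and 0.605 and 0.458 CPM with propranolol.

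Of the neutrophil markers 6 of 10 were tested, with 4 called higher (S100a9, S100a8, Cxcr2 and Retnlg, at log2 fold changes of 2.04, 1.33, 1.31 and 0.79) and 0 lower. Of all 14688 tested genes 1798 were called higher. Csf3r, the most abundant of the neutrophil markers, was not called (0.56), Ltf was at -0.33, and Camp, Mpo, Ly6g and Elane were under 0.6 CPM in every library. The neutrophil list added up to 147 and 179 CPM in the controls and 306 and 323 CPM with propranolol. Of 7 B cell markers only Cd79b (called higher, 0.78) and Ms4a1 (called lower, -2.67) were tested. Ms4a1 was not called when any 1 of the 4 libraries was left out, whereas Cd79b was called higher each time. Neither gene was called after the correction for the GC content of the longest transcript (edgeR adjusted p = 0.0811 for Ms4a1 and 0.111 for Cd79b), and with coding sequences Cd79b was called higher. Cd79a and Pax5 were at or below 1.38 CPM in every library, and the list added up to 10.8 and 13.6 CPM in the controls and 20.0 and 19.1 CPM with propranolol. The 9 receptors added up to 272 and 292 CPM in the controls and 122 and 65.0 CPM with propranolol, which is 43.3% and 23.1% of the control mean. Most of that sum is Il2rb: without it the other 8 added up to 107 and 105 CPM in the controls and 27.5 and 14.9 CPM with propranolol, which is 25.8% and 14.0% of their control mean. The T cell markers stood at 51.3% and 29.7% of their control mean in the same libraries. The part that cells other than macrophages, or their share in the gate, had in the change of the receptors was not tested.

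**Figure D5:**
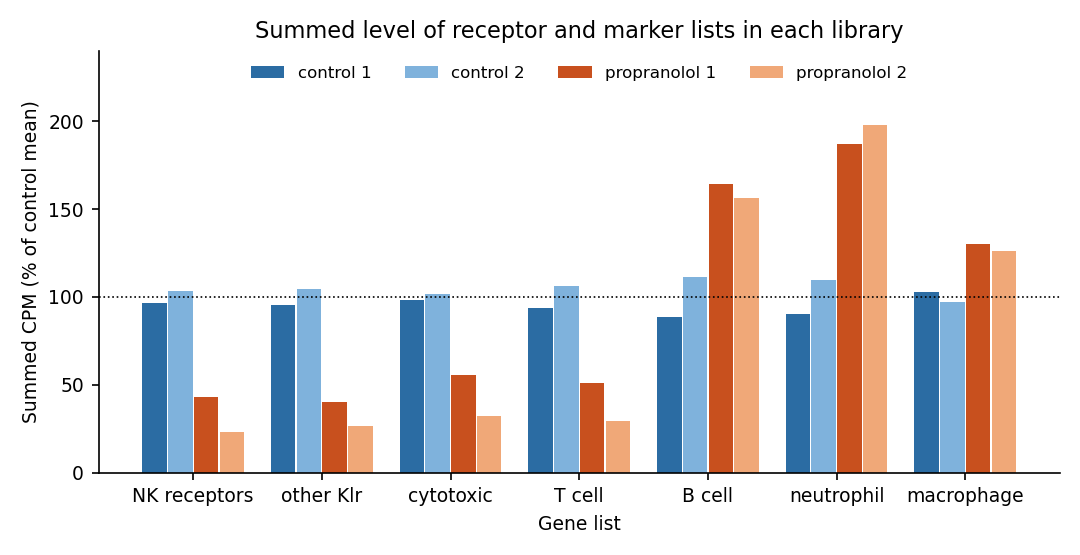
Summed CPM of the 9 receptors, the other Klr genes and the marker lists in each of the 4 libraries, in percent of the mean of the 2 controls (dotted line at 100). The NK receptor, other Klr, cytotoxic and T cell lists lie at 23.1% to 55.7% with propranolol, and the neutrophil list at 187% and 198%. Most of the other Klr sum is Klra2, at 177 of 258 CPM in the control means. The sums take no account of GC content.

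The genes whose pattern over the 4 libraries was most like the mean of the 9 receptors were found by the distance between their log2 CPM deviations. The 10 closest tested genes were Hemgn, Samd3, Trbv12-1, Gzmk, 8430406P12Rik, Gm13479, Ifng, Ikzf5, Trbc2 and Serpinb6b, with distances up to 0.208 against a median of 2.40 over all tested genes. Ifng, the most characteristic cytokine of NK and T cells, had 8.83 and 7.97 CPM in the controls and 2.67 and 1.05 CPM with propranolol. Trbc2, a constant region of the T cell receptor, had 13.1 and 15.9 CPM in the controls and 4.26 and 1.96 CPM with propranolol. Hemgn, Trbv12-1, 8430406P12Rik and Gm13479 had no counts in propranolol 2 and at most 4 in propranolol 1, so their likeness rests on few reads. With 4 libraries the likeness describes these libraries only.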

How the data were processed

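RNA sequencing counts of 4 libraries were used. The authors deposited whole-number counts of fragments per gene without normalization. According to the methods and the submitters' processing notes, reads were aligned to mm10 with STAR 2.7.1a. They were filtered by mapping quality with SAMtools 1.9 and counted with featureCounts 1.6.4. The annotation release and a strand option were not given in the sources used here. Of the columns, 0 were left out.

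Genes were matched by identifier to GENCODE M21 (67 of 54146 unmatched) for symbols, exon lengths and GC content, and promoter windows came from RefSeq (GRCm38.p6). Counts were tested in R 4.3.3 with edgeR 4.0.16 (quasi-likelihood, TMM factors of 1.08, 1.09, 0.914 and 0.931, filterByExpr with a minimum count of 10, no covariate) and Benjamini-Hochberg adjustment over 14688 genes. The common dispersion was 0.0172. The steps were tested on simulated data. Replicates of a group differed beyond sampling noise, since chi-square over its degrees of freedom came to 10.6 for the controls and 13.7 for propranolol. There are 2 biological replicates per group, and an exact permutation over them could not reach 0.05.

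The 9 genes, the gene lists and the tests were chosen with earlier results of these data known. The lists were other Klr genes, other NK receptors, adaptors, ligands, IL-2 and IL-15 signalling, NK transcription factors, cytotoxic genes and markers of T cells, B cells, neutrophils and macrophages. One cell type marker is not reported here. Named genes are the 9, the tested other Klr genes and genes of the NK gene complex, the 5 most abundant and the 5 called genes with the largest change of each list, the cell type markers, and the 10 genes closest in pattern. Klra12, Klrf1, Raet1a, Raet1b, Raet1c and H60a had no row of that name. The GC correction took out, through offsets, a spline (5 degrees of freedom) of the log2 CPM of each library on GC content. Alternatives were DESeq2 1.42.0, its size factors, other filters, libraries left out, a replicate block, both GC corrections and a log2 threshold of 1.5. A floor of 3 counts over the group was used for a gene without counts, and it covers counting error only.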

Additional observations from a re-analysis of the deposited data

How the results depend on the processing

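Of the 9 receptors, 8 were called in the main test and with DESeq2, its size factors, both other filters, the replicate block and the GC correction by coding sequence. With the GC correction 6 were called, with the GC correction and the replicate block 7, and with a log2 threshold of 1.5 also 7. Klrk1 was the gene that reversed, to 0.1397 with the GC correction and 0.1039 with the GC correction and the replicate block. Ncr1 missed the threshold with the GC correction (edgeR adjusted p = 0.0597, against 1.2e-05 to 0.0496 in its other alternatives). The cause of the GC trend was not tested. Klrg1 was not called in any of these settings.

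Over all tested genes 4084 were called, against 3798 with DESeq2 and 4075 with its size factors. Without a filter on low counts 4466 were called, and with a CPM of at least 1 in both libraries of a group 4001. There were 1729 with the GC correction, 1982 with that by coding sequence and 2116 with the GC correction and the replicate block. With the log2 threshold of 1.5 there were 728. Of the other Klr genes 16 were called, against 4, 3 and 5 with these 3 corrections in the same order, and 6 to 12 with one library left out, where the spread of the lone library was taken to equal that of the other group. The replicate numbers share only a number, and the labels name no shared batch. Deviations from the group mean in control 1 and propranolol 1 correlated at 0.169 over 14688 tested genes. With 2 libraries per group, those of control 2 and propranolol 2 are their mirror image and add nothing. With the replicate block 4362 genes, 8 of the 9 receptors and 14 other Klr genes were called.

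Depth limits the low genes most. Gm156 had 3 counts, Ncr1 12 and Klrc1 13 in propranolol 2, and 6 of the 23 other Klr genes had too few counts to be tested. With 2 libraries per group, the p-values measure the spread between these libraries only.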
